A study of Mus musculus with 9 samples.

Results

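The 10 genes described here encode the replication licensing machinery: the 6 subunits of the MCM2-7 helicase (Mcm2, Mcm3, Mcm4, Mcm5, Mcm6 and Mcm7), the loading factors Cdc6 and Cdt1, the licensing inhibitor geminin (Gmnn), and Cdc45, which joins the loaded helicase when an origin fires. They were chosen by name from 46078 gene identifiers, with earlier results of these data known but no measured value in the rule, and all 10 were found in the count files. The data come from EGFP-SSCs, a mouse spermatogonial stem cell line (labelled wild type) that carries a green fluorescent protein, profiled by RNA-seq at 0, 24 and 48 h with 3 biological replicates at each time. The 0 h cells were kept in the usual stem cell culture, on mitomycin-treated embryonic fibroblast feeders with GDNF, FGF2 and EGF. The 24 h and 48 h cells were mixed with an equal number of somatic cells from busulfan-treated neonatal testes. Their medium held BMP-4, BMP-7, retinoic acid, activin A, testosterone, FSH, bovine pituitary extract and serum replacement. Per the study, SSCs were flow-sorted for RNA-seq at different stages of culture, with GFP-negative embryonic fibroblasts as the control. It does not state separately whether the 0 h cells were sorted. All 9 libraries thus derive from 1 cell line, the co-culture and the medium changed together, and time, co-culture and medium cannot be told apart.

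Licensing is the step of late mitosis and G1 at which a cell marks its origins for replication. The origin recognition complex binds DNA, Cdc6 and Cdt1 then bring a pair of MCM2-7 rings onto it, and in S phase Cdc45 and the GINS complex turn each ring into a working helicase, while geminin holds Cdt1 back so that no origin is licensed again before the cell divides. The genes are classic targets of E2F factors, and in the testis spermatogonia divide by mitosis several times before a last round of replication precedes meiosis.

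Because E2F sites are the feature by which these genes are best known, the promoters were searched for them first. RefSeq promoter sequences (GRCm38.p6, 250 bases before to 50 after each start) were matched by symbol for 8 of the 10 genes, as 9 sequences, since Mcm7 had more than 1 start. No sequence was matched for Mcm4 and Gmnn. The letters TTTCCCGC, TTTCGCGC, TTTGCCGC or TTTGGCGC, on either strand, occurred in 6 genes and 6 of the 9 sequences, against 2.26% of the 32851 promoters in the table. The windows of 30 bases that hold them are shown with the matched letters in capitals, 5′ to 3′ on the strand of the gene, because they are rare among all promoters and occur in 6 of the 8 genes matched.
Mcm3, chr1:20820265-20820294, minus strand, bases 19 to 48 after the start: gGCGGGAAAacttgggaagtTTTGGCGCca
Mcm5, chr8:75109347-75109376, plus strand: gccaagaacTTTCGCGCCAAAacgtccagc
Mcm6, chr1:128359795-128359824, minus strand: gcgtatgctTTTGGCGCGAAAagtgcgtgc
Mcm6, chr1:128359734-128359763, minus strand: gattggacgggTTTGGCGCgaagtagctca
Mcm7, chr5:138172030-138172059, minus strand: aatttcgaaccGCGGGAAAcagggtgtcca
Mcm7, chr5:138171849-138171878, minus strand, bases 6 to 35 after the start: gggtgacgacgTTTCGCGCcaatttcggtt
Cdc6, chr11:98908002-98908031, plus strand: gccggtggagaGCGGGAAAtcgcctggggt
Cdt1, chr8:122568035-122568064, plus strand, bases 21 to 50 after the start: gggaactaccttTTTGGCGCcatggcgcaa

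The windows with no position given lie before the start, and those of Mcm5 and the upstream window of Mcm6 each hold 2 matches that overlap on opposite strands. The promoters of Mcm2 and Cdc45 and the other Mcm7 start held none of these letters. CCAAT, the core of NF-Y sites, occurred in 7 of the 9 sequences against 37.4% of all promoters, and GGGCGG, the core of Sp1 sites, also in 7 of 9 against 35.7%. TTTGAA, the letters of the CHR element, occurred in 2 of 9, those of Mcm2 and Cdc45, against 17.9%. Such matches describe the letters in these windows and do not show that a factor bound there.

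Library totals ran from 16825251 to 22201892 counts, and every licensing gene had at least 851 counts in every library. Levels are given as CPM, the counts per library scaled to a common total, with TMM scaling, which adjusts for differences in library composition, and differences as log2 fold changes ± SE from edgeR's quasi-likelihood test on the 6 libraries of each comparison, with a Benjamini-Hochberg adjusted p of up to 0.05 as the threshold over all genes tested. The 0 h libraries differed most among themselves: the chi-square per degree of freedom between a pair of replicates was 35.5 to 81.4 at 0 h, against 7.97 to 13.4 at 24 h and 7.13 to 26 at 48 h, and the biological coefficient of variation was 0.22 and 0.228 in the comparisons with 0 h against 0.115 between 24 h and 48 h. The 8 germ cell markers (Ddx4, Dazl and others) were detected in every group, at a summed 1543 to 2691 CPM at 0 h, 1796 to 2065 at 24 h and 1926 to 2263 at 48 h. The 8 stromal and fibroblast markers summed to 289 to 400 CPM at 0 h, 2216 to 2587 at 24 h and 3018 to 3334 at 48 h, and the 6 myoid markers to 13.7 to 15.6, 146 to 207 and 263 to 321. The 8 Sertoli markers summed to 16.6 to 20.0 CPM at 0 h, 57.7 to 92.4 CPM at 24 h and 72.8 to 76.8 CPM at 48 h, with 7 of 8 called higher at 48 h than at 0 h, against 13% of all genes tested. The other, Sox9, went down, from a mean of 11.7 CPM at 0 h to 6.63 at 24 h, where it was called lower, and 7.9 at 48 h. Leydig markers summed to 4.38 to 6.84, 24.6 to 38.6 and 25.4 to 32.5 CPM, with Hsd3b1 and Insl3 at 0 in every 0 h library, endothelial markers to 70.3 to 77.3, 28.3 to 36.2 and 21.0 to 24.2, and macrophage markers to 15.3 to 17.5, 6.41 to 10.2 and 6.44 to 9.16, with C1qa at 0 at 0 h and 48 h. Within the falling sums, 3 endothelial markers were called lower at 24 h and 48 h than at 0 h, but Tek was called higher. Its means were 1.42, 3.49 and 4.1 CPM. Of the macrophage markers, Cd68 was called lower and Csf1r higher at 24 h than at 0 h. The summed somatic signal thus moved with the co-culture, though not every marker moved with its sum. The part of this signal in the differences described here was not tested. In such bulk libraries, fewer cells of a type and less RNA per cell cannot be told apart.

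Geminin rose in the co-culture, a pair of helicase subunits was lower after 48 h, and most licensing genes did not pass the test against 0 h. Of the 10 genes, 1 passed the threshold at 24 h against 0 h, which was Gmnn (higher), where 25.5% of the 17592 genes tested passed (11.4% higher and 14.2% lower). At 48 h against 0 h, 3 passed (Gmnn higher, Mcm3 and Mcm7 lower), where 31.6% of the 17755 genes tested passed (13% higher and 18.5% lower). At 48 h against 24 h, 3 passed (Mcm3, Mcm6 and Mcm7, all lower), where 21.3% of the 17499 genes tested passed (8.61% higher and 12.7% lower). The log2 fold changes were below 0 for 7, 8 and 10 of the 10 genes in these comparisons, with medians of -0.06, -0.20 and -0.15 beside 0.01, 0.02 and -0.01 over all genes tested. Scaling by library size alone turned Mcm2, Mcm4, Mcm6 and Cdt1 above 0 at 24 h and Mcm4 and Cdc6 at 48 h against 0 h, and correction for GC content and length turned Mcm6 at 24 h, Cdc6 and Cdt1 at 48 h and Cdt1 between 24 h and 48 h, none of them called. The libraries of the groups compared did not overlap for 3, 5 and 6 of the 10 genes, against 43.4%, 48.3% and 39.6% of all genes tested. With only 10 genes, the counts of calls were not read as above or below these shares, and no test of a set was made. Between 24 h and 48 h the count of calls was 0 with all 9 libraries in 1 fit and 1 with the correction for GC content and length. Comparisons with 0 h share the 0 h libraries, and those with 24 h share the 24 h libraries, so that their values are set side by side and are not independent.

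**Figure D1:**
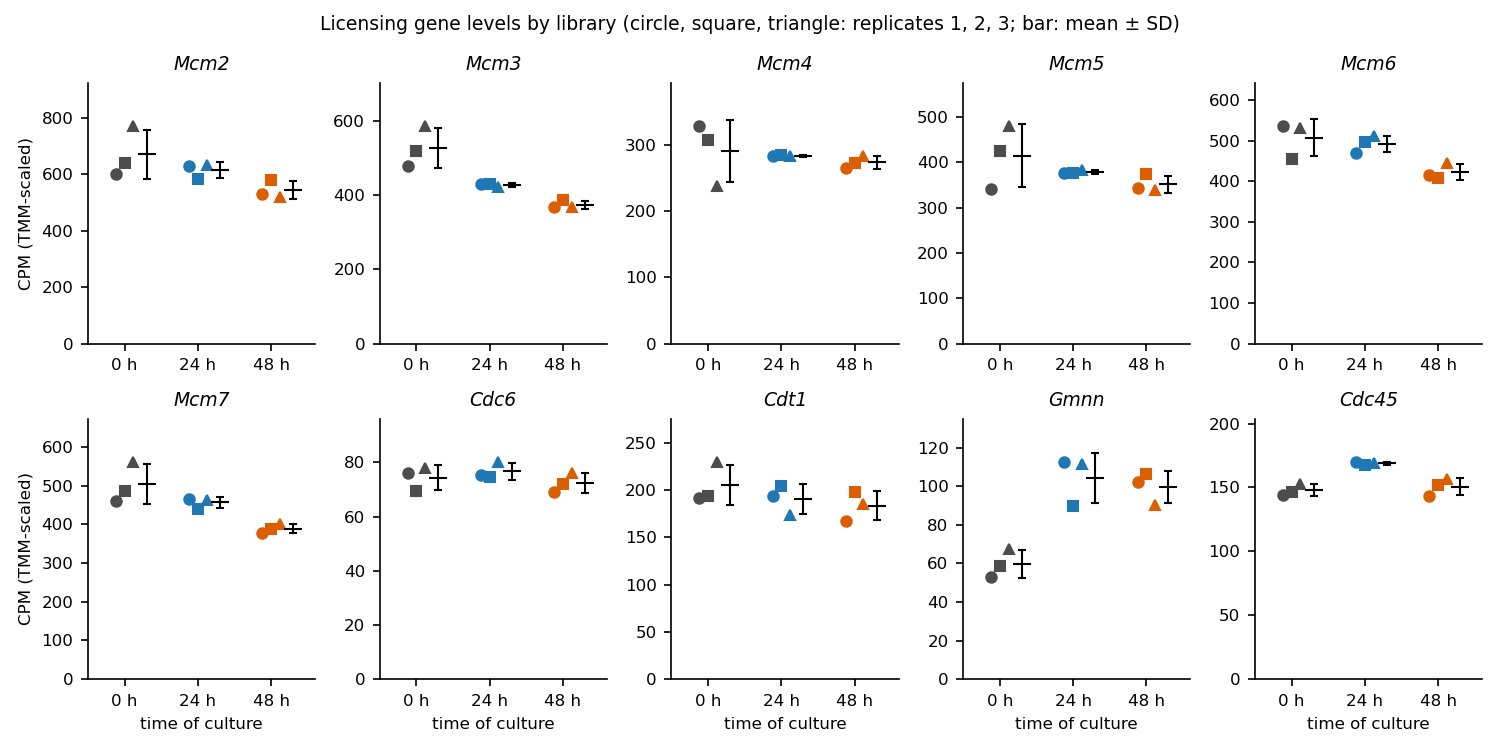
Level of each licensing gene (vertical axis, TMM-scaled CPM, from 0) in each library against the time of culture (horizontal axis); circles, squares and triangles are replicates 1, 2 and 3, and the bar beside them is the mean ± SD (n = 3). Gmnn sat at 53.0 to 67.5 CPM at 0 h and at 89.5 CPM or more in all later libraries, while the MCM genes spread widely at 0 h and drew together at 24 h and 48 h.

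Geminin, the inhibitor, gave the clearest change of the set. Gmnn (ENSMUSG00000006715, chr13:24751845-24761923, minus strand, GRCm38) was at 53.0, 58.6 and 67.5 CPM in the 0 h libraries, at 112.6, 89.5 and 111.4 CPM in the 24 h libraries, and at 102.2, 106.4 and 90.4 CPM in the 48 h libraries. Every co-cultured library lay above every 0 h library, and the 24 h and 48 h libraries overlapped. The rise was 1.77-fold at 24 h (log2 fold change 0.82 ± 0.14, edgeR adjusted p = 0.00552) and 1.67-fold at 48 h (0.74 ± 0.13, edgeR adjusted p = 0.00491). Between 24 h and 48 h the level differed by -0.08 ± 0.10 on the log2 scale, which did not pass the test (edgeR adjusted p = 0.602). Gmnn stayed past the threshold in both comparisons with 0 h when each library in turn was left out, with adjusted p of 0.00177 to 0.0368 at 24 h and 0.00174 to 0.0293 at 48 h by the same edgeR test.

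Cdt1, the loading factor that geminin binds, did not pass the test in any comparison. Cdt1 (ENSMUSG00000006585, chr8:122568015-122573554, plus strand) was at 192, 194 and 229.9 CPM at 0 h, at 194, 205 and 173.5 CPM at 24 h, and at 168, 198 and 186 CPM at 48 h. The groups overlapped, and the log2 fold changes were -0.09 ± 0.12 at 24 h and -0.16 ± 0.12 at 48 h against 0 h, with edgeR adjusted p of 0.639 and 0.36. The ratio of Cdt1 to Gmnn counts within a library, which needs no scaling between libraries, was 3.62, 3.31 and 3.41 at 0 h, 1.72, 2.29 and 1.56 at 24 h, and 1.64, 1.86 and 2.05 at 48 h. All 6 co-cultured libraries lay below the 3 libraries of 0 h. A correction for GC content and length was not applied to this ratio. With that correction Cdt1 alone differed by 0.13 at 48 h against 0 h, while Gmnn stayed between 0.73 and 0.85 in the 10 other settings tried. The ratio was 1.88-fold lower at 24 h and 1.87-fold lower at 48 h than at 0 h, a log2 difference of -0.91 and -0.90. A two-sided exact permutation test gave p = 0.1 in both cases, 0.15 after Benjamini-Hochberg adjustment over the 3 comparisons, and 0.1 is the smallest p that 3 against 3 libraries allow. Between 24 h and 48 h the log2 difference was 0.01 (exact permutation p = 1).

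**Figure D2:**
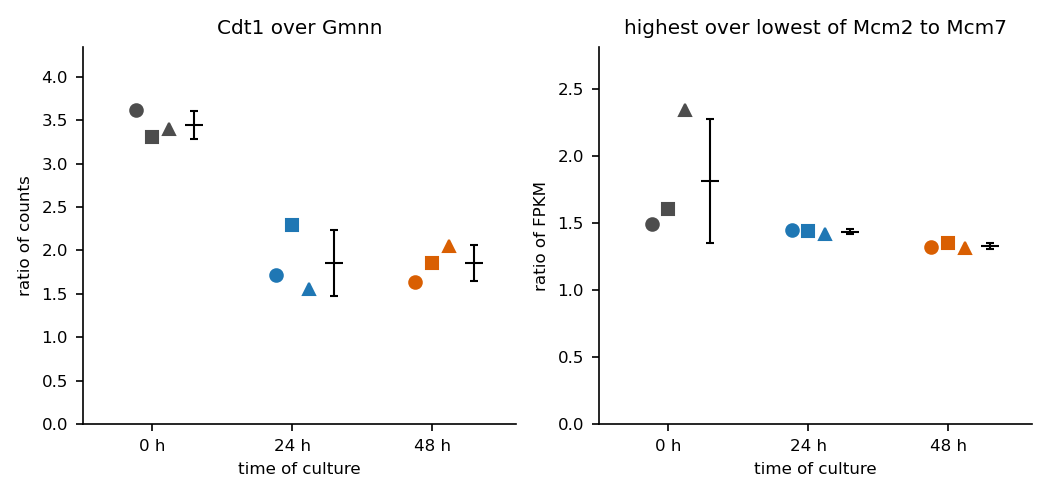
Ratios within a library (vertical axes, from 0) by time of culture (horizontal axes); symbols are replicates 1, 2 and 3, with the mean ± SD beside them. On the left, the ratio of Cdt1 to Gmnn counts was at least 3.31 in the 0 h libraries and at most 2.29 in the others. On the right, the highest over the lowest FPKM of Mcm2 to Mcm7, over the union of exons, ranged from 1.50 to 2.35 at 0 h, 1.42 to 1.45 at 24 h and 1.31 to 1.35 at 48 h.

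Cdc6, the ATPase that helps to load the MCM ring, did not pass the test in any comparison. Cdc6 (ENSMUSG00000017499, chr11:98907801-98923940, plus strand) was at 76.0, 69.3 and 77.8 CPM at 0 h, at 75.3, 74.5 and 80.1 CPM at 24 h, and at 69.1, 71.9 and 76.2 CPM at 48 h. The 3 groups overlapped throughout. The log2 fold changes were 0.06 ± 0.10 at 24 h and -0.04 ± 0.11 at 48 h against 0 h, and -0.09 ± 0.07 between 24 h and 48 h, and none passed the test.

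Cdc45, the helicase activator, was highest at 24 h. Cdc45 (ENSMUSG00000000028, chr16:18780447-18811987, minus strand) was at 144, 146 and 153 CPM at 0 h, at 169.9, 168 and 169 CPM at 24 h, and at 143.5, 152 and 156 CPM at 48 h. The 24 h libraries lay above all others, while those of 0 h and 48 h overlapped. The log2 fold change of 0.21 ± 0.09 at 24 h against 0 h missed the threshold (edgeR adjusted p = 0.14), which it passed with library size alone (0.0362) and with the GC and length correction (0.0188), and so did -0.18 ± 0.06 at 48 h against 24 h (edgeR adjusted p = 0.0598). The annotated exons of Cdc45 overlap those of Ufd1, on the opposite strand, over 209 bases (5.96% of the exonic length of Cdc45), and their starts lie 208 bases apart. No source used here states whether the counting used strand, so that reads from the overlap cannot be assigned. Ufd1, at a mean of 69.8 CPM at 0 h, differed by -0.12 ± 0.14 at 24 h on the log2 scale, which did not pass the test.

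Among the helicase subunits, Mcm3 had the largest difference at 48 h against 0 h, whereas between 24 h and 48 h the values of Mcm3, Mcm6 and Mcm7 lay within their SE of each other. Mcm3 (ENSMUSG00000041859, chr1:20802968-20820312, minus strand) was at 479, 518 and 585 CPM at 0 h, at 429.5, 430.2 and 422 CPM at 24 h, and at 367, 386 and 368 CPM at 48 h. No library of one time overlapped those of another. The level at 48 h was 1.41-fold lower than at 0 h (log2 fold change -0.50 ± 0.11, edgeR adjusted p = 0.0121) and 0.868 times that at 24 h (-0.20 ± 0.06, edgeR adjusted p = 0.031), whereas the 24 h value against 0 h, -0.29 ± 0.11, missed the threshold (edgeR adjusted p = 0.0937). The call at 48 h against 0 h was lost without 48 h replicate 1 (edgeR adjusted p = 0.072) or replicate 3 (0.0649). The call between 24 h and 48 h was held only without 48 h replicate 2, and the edgeR adjusted p rose to 0.0567 to 0.177 without any other library. At 24 h against 0 h the gene passed without 0 h replicate 1 (edgeR adjusted p = 0.039). With a correction for GC content and length, Mcm3 still passed at 48 h against 0 h but not against 24 h (-0.11, edgeR adjusted p = 0.18).

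Mcm7 was also lower at 48 h. Mcm7 (ENSMUSG00000029730, chr5:138164583-138172422, minus strand) was at 461, 488 and 561 CPM at 0 h, at 467, 441 and 462.5 CPM at 24 h, and at 376.5, 389 and 401 CPM at 48 h. The 48 h libraries lay below all others, and those of 0 h and 24 h overlapped. The level at 48 h was 1.29-fold lower than at 0 h (log2 fold change -0.37 ± 0.11, edgeR adjusted p = 0.0367) and 1.18-fold lower than at 24 h (-0.24 ± 0.06, edgeR adjusted p = 0.0186). Against 0 h the call was held only without 0 h replicate 1, and the edgeR adjusted p ran from 0.059 to 0.159 when any of the other 5 libraries was left out. Between 24 h and 48 h it was lost without 24 h replicate 1, 24 h replicate 3 or 48 h replicate 1, with edgeR adjusted p of 0.0742, 0.0538 and 0.133. Both calls of Mcm7 were also lost with a correction for GC content and length, where the log2 fold changes were -0.17 and -0.12 (edgeR adjusted p = 0.176 and 0.19). Scaling by library size alone ended the call against 0 h (-0.26, edgeR adjusted p = 0.0979). Of the longest Mcm7 transcript, 76.8% matches other genes over windows of 75 bases at 97% identity, most of it (65.8%) the pseudogene Gm5487, which was not analysed here, and the level of Mcm7 is uncertain to the extent that the counting left out or split such reads. Its exons also overlap those of Ap4m1, on the opposite strand, over 321 bases (7.25%), those of Cops6, also on the opposite strand, over 64 bases (1.45%), and those of the microRNA genes Mir25 and Mir93, on the same strand, over 84 and 88 bases. Mir25 and Mir93 had 0 counts in the 9 libraries. Ap4m1, a subunit of an adaptor complex of vesicle traffic, was at a mean of 21.8 CPM at 0 h and differed by 0.31 ± 0.10 at 48 h, opposite in sign to Mcm7 and short of the threshold (edgeR adjusted p = 0.0627), which it passed without 0 h replicate 3 (0.0361) and in 5 of the 10 other settings tried. Cops6, a subunit of the COP9 signalosome, was at 106.0, 159 and 209.8 CPM at 0 h, at 174.2, 150.8 and 187.8 CPM at 24 h, and at 133.7, 132.9 and 112.4 CPM at 48 h. Its 48 h libraries lay below those of 24 h, as did those of Mcm7, and the log2 fold change was -0.45 ± 0.10 (edgeR adjusted p = 0.0111), a call lost without 24 h replicate 3 (0.0502) and with all 9 libraries in 1 fit (0.275). At 48 h against 0 h Cops6 differed by -0.32 ± 0.23 (edgeR adjusted p = 0.339), and by -0.54 without 0 h replicate 1, which passed (0.0264). The part of the overlaps in the level of Mcm7 was not tested.

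Mcm6 was lower at 48 h than at 24 h, and Mcm2 passed the test in no comparison. Mcm6 (ENSMUSG00000026355, chr1:128331590-128359664, minus strand) was at 535, 456 and 532 CPM at 0 h, at 470.2, 495.5 and 510.2 CPM at 24 h, and at 416, 408.5 and 445 CPM at 48 h. The 48 h libraries lay below all others. The level was 1.17-fold lower at 48 h than at 24 h (log2 fold change -0.23 ± 0.06, edgeR adjusted p = 0.032), a call held only without 48 h replicate 3 and with an adjusted p of 0.0553 to 0.157 by edgeR without any other library. Against 0 h the value of -0.26 ± 0.11 missed the threshold (edgeR adjusted p = 0.109). Mcm2 (ENSMUSG00000002870, chr6:88883474-88898780, minus strand) was at 602, 640.5 and 770.4 CPM at 0 h, at 631, 584 and 634 CPM at 24 h, and at 531, 579.8 and 520.2 CPM at 48 h. Its 48 h libraries also lay below all others, but neither the value against 0 h, -0.30 ± 0.13, nor that against 24 h, -0.19 ± 0.07, passed the test (edgeR adjusted p = 0.109 and 0.0692). Leaving out 0 h replicate 1 brought the value of Mcm2 against 0 h past the threshold (edgeR adjusted p = 0.0478), and leaving out 48 h replicate 2 did so against 24 h (0.0405).

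The remaining subunits, Mcm5 and Mcm4, passed the test in no comparison. Mcm5 (ENSMUSG00000005410, chr8:75109569-75128439, plus strand) was at 340.5, 425 and 479 CPM at 0 h, at 376, 375 and 383 CPM at 24 h, and at 343, 373 and 338 CPM at 48 h. The 0 h libraries alone spanned the range of the other 6, apart from 1 library of 48 h that lay below them, and the log2 fold change at 48 h against 0 h was -0.24 ± 0.14. Without 0 h replicate 1 this value was -0.36 and passed the test (edgeR adjusted p = 0.0371). Mcm4 (ENSMUSG00000022673, chr16:15623897-15637400, minus strand) was at 328, 308 and 238 CPM at 0 h, at 283, 286 and 284 CPM at 24 h, and at 265, 273 and 283 CPM at 48 h. Its order among the 0 h libraries was opposite to that of Mcm2, Mcm3, Mcm5 and Mcm7, with replicate 3 the lowest for Mcm4 and the highest for these 4 genes. The log2 fold changes of Mcm4 were -0.02 ± 0.14 at 24 h and -0.09 ± 0.14 at 48 h against 0 h. The start of Mcm4 lies 466 bases from that of Prkdc, the catalytic subunit of the DNA-dependent protein kinase, on the opposite strand, and Prkdc differed by 0.09 ± 0.41 and 0.44 ± 0.44 in the same comparisons, neither of which passed the test. Without 0 h replicate 1, Prkdc was higher by 1.07 at 48 h (edgeR adjusted p = 0.0258).

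**Figure D3:**
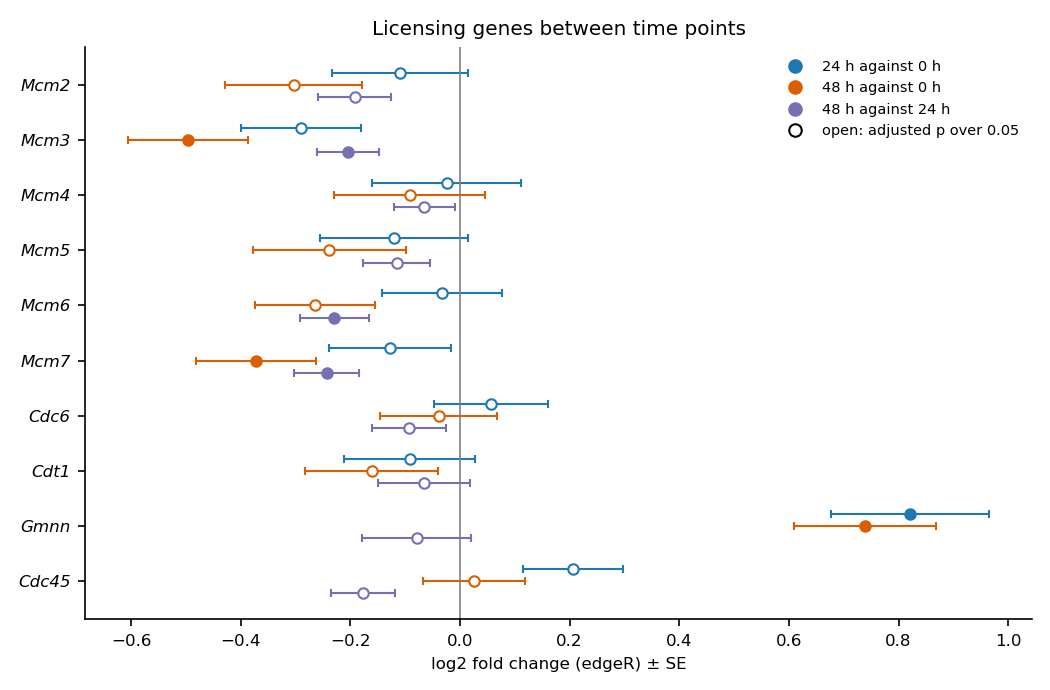
Log2 fold change ± SE from edgeR (horizontal axis) of the 10 licensing genes (vertical axis) in the 3 comparisons; filled points have an adjusted p of up to 0.05. Gmnn lay at 0.82 and 0.74 against 0 h, and all 10 values of 48 h against 24 h lay between -0.24 and -0.06.

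The 6 subunits of the helicase are needed in equal number, so that their levels per length were set beside each other. As FPKM (CPM divided by gene length in kilobases, over the union of exons), the order at 0 h was Mcm3 (140.5 ± 14.3, SD, n = 3), Mcm7 (114 ± 11.7), Mcm6 (109 ± 9.62), Mcm5 (104 ± 17.5), Mcm2 (96.5 ± 12.7) and Mcm4 (81.2 ± 13.1). The libraries of neighbours in this order overlapped, except those of Mcm3 and Mcm7. At 48 h the order was Mcm3 (99.6 ± 2.78 FPKM), Mcm6 (90.7 ± 4.12), Mcm5 (88.0 ± 4.78), Mcm7 (87.9 ± 2.77), Mcm2 (78.2 ± 4.56) and Mcm4 (76.3 ± 2.55), and only Mcm3 lay apart from Mcm6, and Mcm7 from Mcm2, without overlap. The highest subunit stood 1.82 ± 0.46 times above the lowest at 0 h, 1.44 ± 0.02 times at 24 h and 1.33 ± 0.02 times at 48 h (SD, n = 3). Within a library these ratios were 1.50, 1.61 and 2.35 at 0 h, 1.45, 1.44 and 1.42 at 24 h, and 1.33, 1.35 and 1.31 at 48 h. Over the union of exons, the 48 h libraries thus lay below all others. With the longest transcript as length, the ratios were 2.45 ± 0.77 at 0 h, 2.23 ± 0.11 at 24 h and 2.04 ± 0.15 at 48 h (SD, n = 3). The ranges of mean ± SD then overlapped. The order too depends on the gene length used. The union of exons of Mcm2 is 6956 bases and its longest transcript 3494 bases, and with the longest transcript Mcm2 was the highest at all 3 times (192 FPKM at 0 h).

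Over the union of exons, the other licensing genes had lower means per length than the subunits at each time, although Cdt1, at up to 73.2 FPKM, overlapped Mcm4, from 66.4 FPKM, at 0 h. Cdt1 stood at 65.4 ± 6.78 FPKM at 0 h, 60.8 ± 5.07 at 24 h and 58.5 ± 4.83 at 48 h. Gmnn stood at 40.8 ± 4.99 FPKM in the 0 h libraries, 71.3 ± 8.86 in those of 24 h and 68.1 ± 5.65 in those of 48 h, from below Cdc45 in the order of means at 0 h to above Cdt1 at both later times. Gmnn overlapped Cdc45 at 0 h and Cdt1 at 24 h and 48 h, neighbours in the order that do not differ beyond their spread. With the longest transcript as length, Gmnn stood at 92.7 and 88.5 FPKM at 24 h and 48 h, above Mcm4 (79.1 and 76.3, without overlap at 48 h) and above Cdt1 (70.8 and 68.2), which was then no longer its neighbour. Cdc45 stood at 42.2 ± 1.26, 48.2 ± 0.32 and 43.0 ± 1.87 FPKM and Cdc6, the lowest of the 10 at every time, at 14.2 ± 0.86, 14.7 ± 0.59 and 13.9 ± 0.69 FPKM. Over the windows used for Mcm7, 21.9% of the longest Cdc6 transcript matches Gm9430 and 9.06% of that of Mcm4 matches Gm9577. The levels of Cdc6 and Mcm4 are uncertain to the extent that the counting left out or split such reads.

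**Figure D4:**
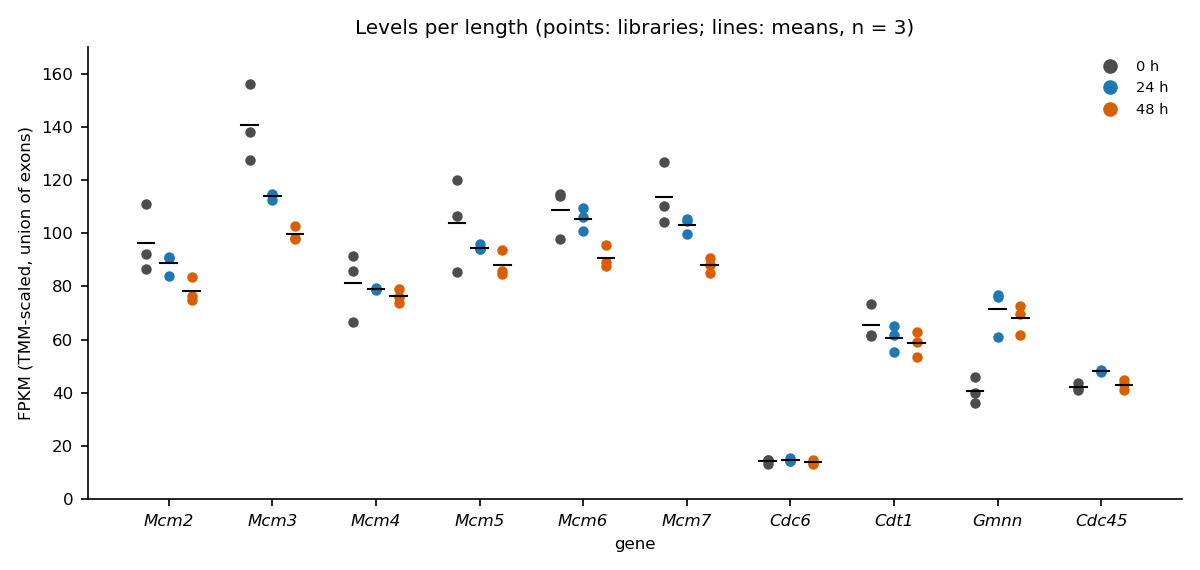
FPKM over the union of exons (vertical axis, TMM-scaled, from 0) of the 10 licensing genes (horizontal axis) at 0 h, 24 h and 48 h; points are libraries and lines the means of 3. The MCM subunits lay between 66.4 and 156 FPKM in all libraries, and Gmnn moved from 36.2 to 46.1 FPKM at 0 h to 61.1 FPKM or more later.

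The pattern of the helicase subunits over the 9 libraries, taken as the mean of their standardised log2 CPM, was most like that of Mthfd2 (Pearson r = 0.992), Paox (0.992), Dnpep (0.988), Slc1a5 (0.987) and Cbln1 (0.985), among 10216 genes with a mean of at least 10 CPM outside the lists used here. Mthfd2 is a mitochondrial enzyme of folate metabolism, Slc1a5 a glutamine transporter and Paox an oxidase of polyamines. These correlations are a description over 9 libraries that share their time points. They are with the mean of the subunits and not with each one. The order of Mcm4 among the 0 h libraries was opposite to that of Mcm2, Mcm3, Mcm5 and Mcm7.

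The origin recognition complex, on which licensing starts, showed 1 call among its 6 genes over the 3 comparisons. Among all genes tested, 25.5%, 31.6% and 21.3% passed in these comparisons. Orc6 was at 90.7, 89.9 and 68.8 CPM at 0 h, at 57.4, 58.6 and 65.5 CPM at 24 h, and at 51.0, 52.4 and 54.4 CPM at 48 h. The groups did not overlap. Orc6 was 1.58-fold lower at 48 h than at 0 h (log2 fold change -0.66 ± 0.14, edgeR adjusted p = 0.00961), a call lost without 48 h replicate 1 (0.0551), and at 24 h the value of -0.45 ± 0.14 missed the threshold (edgeR adjusted p = 0.0543) but passed without 0 h replicate 3 (0.00658) and in 5 of the 10 other settings, among them DESeq2 (0.0345) and all 9 libraries in 1 edgeR fit (0.0163). Orc1, an ATPase subunit, was at 63.7, 74.1 and 69.0 CPM at 0 h and 81.2, 85.5 and 84.2 CPM at 48 h, all higher, with a log2 fold change of 0.28 ± 0.10 that missed the threshold (edgeR adjusted p = 0.0801). Orc4 was at 63.4, 33.5 and 23.2 CPM in the 0 h libraries, a spread wider than its difference from 24 h (-0.68 ± 0.36, edgeR adjusted p = 0.213). Without 0 h replicate 3 the value of Orc4 was -0.93 and passed (edgeR adjusted p = 0.0346). Between 24 h and 48 h Orc4 differed by 0.32 ± 0.14, which passed without 24 h replicate 3 (edgeR adjusted p = 0.0357). Orc2, Orc3 and Orc5 differed by -0.02 ± 0.19, -0.31 ± 0.25 and -0.28 ± 0.20 at 24 h and by 0.08 ± 0.18, -0.16 ± 0.25 and -0.12 ± 0.20 at 48 h against 0 h, and none passed. The count of calls depends on the correction for GC content and length. With it, Orc3, Orc4 and Orc6 were called lower at 24 h against 0 h, those genes lower and Orc1 higher at 48 h against 0 h, and Orc6 lower at 48 h against 24 h (edgeR adjusted p of up to 0.0481).

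Of the 5 other MCM relatives (Mcm8, Mcm9, Mcm10, Mcmbp and Mcmdc2), only Mcm10, a fork factor that works beside Cdc45, passed. This was 1 of 5 in each comparison with 0 h, where 25.5% and 31.6% of all genes tested passed. Mcm10 was at 131, 139 and 136 CPM at 0 h, at 90.8, 98.1 and 94.97 CPM at 24 h, and at 95.4, 104 and 104 CPM at 48 h, with no overlap between 0 h and the later libraries. It was 1.42-fold lower at 24 h (log2 fold change -0.51 ± 0.09, edgeR adjusted p = 0.00661) and 1.34-fold lower at 48 h (-0.42 ± 0.10, edgeR adjusted p = 0.0135). The call at 48 h was lost without 0 h replicate 2, 48 h replicate 1 or 48 h replicate 3 (edgeR adjusted p of up to 0.0865).

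Few of the genes that fire licensed origins passed the test. Of 16 tested, 1 was higher and 1 lower at 24 h against 0 h, 1 was higher at 48 h, and 1 was higher between 24 h and 48 h, fewer than the shares of all genes called. Those shares were 25.5%, 31.6% and 21.3%. Clspn, an adaptor of the replication checkpoint, was at 86.6 to 143 CPM at 0 h and at 194 to 204 CPM in the 6 later libraries, which lay above it (1.65-fold at 24 h, log2 fold change 0.72 ± 0.18, edgeR adjusted p = 0.0249, and 1.66-fold at 48 h, 0.73 ± 0.19, edgeR adjusted p = 0.0218). Topbp1, which helps to place Cdc45, went from 219 to 450.1 CPM at 0 h down to 179.5 to 196 CPM at 24 h (log2 fold change -0.83 ± 0.24, edgeR adjusted p = 0.0411) and was 213 to 233.5 CPM at 48 h. The calls of Clspn were lost without any 1 of the co-cultured libraries (edgeR adjusted p of up to 0.0851 at 24 h and 0.0736 at 48 h), and that of Topbp1 at 24 h without any 24 h library or 0 h replicate 2 (up to 0.134), and also with library size alone (0.0653) and a minimum of 10 counts per library (0.0561). The median log2 fold change of the 16 genes was 0.12 at 24 h and 0.14 at 48 h against 0 h.

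Of the genes that time licensing, cyclin E1 fell at each step. Ccne1 was at 62.9, 58.3 and 62.3 CPM at 0 h, at 42.6, 41.8 and 40.8 CPM at 24 h, and at 29.2, 29.9 and 29.5 CPM at 48 h, with no overlap. Against 0 h, Ccne1 differed by -0.54 ± 0.10 after 24 h and by -1.05 ± 0.10 after 48 h on the log2 scale, and between 24 h and 48 h by -0.51 ± 0.07 (edgeR adjusted p = 0.0087, 0.000327 and 0.00129). Its kinase partner Cdk2 was at 77.1 to 80.6 CPM at 0 h and 98.7 to 104 CPM at 24 h (log2 fold change 0.36 ± 0.10, edgeR adjusted p = 0.029). Skp2 and Cul4a, parts of the ubiquitin ligases that remove Cdt1, were lower at 48 h than at 0 h by -0.46 ± 0.11 and -0.40 ± 0.10 on the log2 scale (edgeR adjusted p = 0.02 and 0.0237). Without 24 h replicate 2, Ccne1 missed the threshold at 24 h (edgeR adjusted p = 0.0537). The calls of Cdk2 at 24 h and of Skp2 and Cul4a at 48 h were lost without 0 h replicate 2 or any 1 of the co-cultured libraries, with an edgeR adjusted p of up to 0.14, 0.104 and 0.121. Cdk2 was also lost with no expression filter (edgeR adjusted p = 0.101) and with a fold change over 1.3 required, and Skp2 and Cul4a with library size alone (0.0503 and 0.0724). A block for the replicate number ended the calls of Cdk2, Skp2 and Cul4a as well (edgeR adjusted p = 0.105, 0.0797 and 0.0895). Of the 13 genes tested in this list, 1 was higher and 1 lower at 24 h, 3 were lower at 48 h against 0 h, and 4 were lower between 24 h and 48 h. Among all genes tested, 11.4% were higher and 14.2% lower at 24 h, 18.5% were lower at 48 h against 0 h, and 12.7% were lower between 24 h and 48 h. At 48 h against 0 h, 8 of the 13 log2 fold changes lay above 0 and 5 below, with a median of 0.015. Ccne2 and Cul4b, relatives of Ccne1 and Cul4a, differed there by 0.602 ± 0.395 and 0.378 ± 0.353. Ddb1 and Dtl, in the same list, differed by 0.003 ± 0.122 and 0.133 ± 0.198. None of these values passed the test, and the genes were named after their values were seen. The geminin relatives Gmnc and Mcidas were too low to be tested. None of the 7 genes that unload the helicase passed in any comparison by edgeR, where 25.5%, 31.6% and 21.3% of all genes passed.

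Of the 13 genes of E2F factors and pocket proteins, 5 were lower at 48 h than at 0 h (E2f1, E2f2, E2f4, E2f8 and Tfdp1). The share of all genes called lower there was 18.5%. E2f1 was at 194, 275 and 301 CPM at 0 h, at 149, 153 and 156 CPM at 24 h, and at 113, 119 and 109 CPM at 48 h, and no library of one time overlapped another. On the log2 scale it differed from 0 h by -0.73 ± 0.16 after 24 h and -1.17 ± 0.17 after 48 h, and between 24 h and 48 h by -0.44 ± 0.06 (edgeR adjusted p = 0.0144, 0.0019 and 0.00167). The last of these calls was lost with all 9 libraries in 1 fit (edgeR adjusted p = 0.124) and with the replicate block and the GC and length correction together, where the value was -0.20 (0.0766). E2f2 was at 26.9 to 39.8 CPM at 0 h and 10.8 to 14.4 CPM at 48 h (log2 fold change -1.41 ± 0.19, edgeR adjusted p = 0.00129), and E2f8, a repressor of the family, was lower by -0.59 ± 0.14 (edgeR adjusted p = 0.0173). The call of E2f1 at 24 h was lost without any 24 h library or 0 h replicate 2 (edgeR adjusted p of up to 0.0678), and that of E2f8 without 0 h replicate 2, 48 h replicate 1 or 48 h replicate 2 (up to 0.0878). In the same list, 1 gene was lower at 24 h against 0 h, and between 24 h and 48 h 4 were lower and 1, E2f6, was higher (0.26 ± 0.07, edgeR adjusted p = 0.0237). Among all genes tested, 14.2% were lower at 24 h against 0 h, and 12.7% were lower and 8.61% higher between 24 h and 48 h. E2f4, E2f6 and Tfdp1 are named here to complete these counts and were chosen after their values were seen. The MCM genes, with log2 fold changes from -0.50 to -0.09 at 48 h against 0 h, thus lay between the values of E2f1 and 0. The test here was of each gene alone, and no relation between E2F levels and licensing gene levels was tested.

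**Figure D5:**
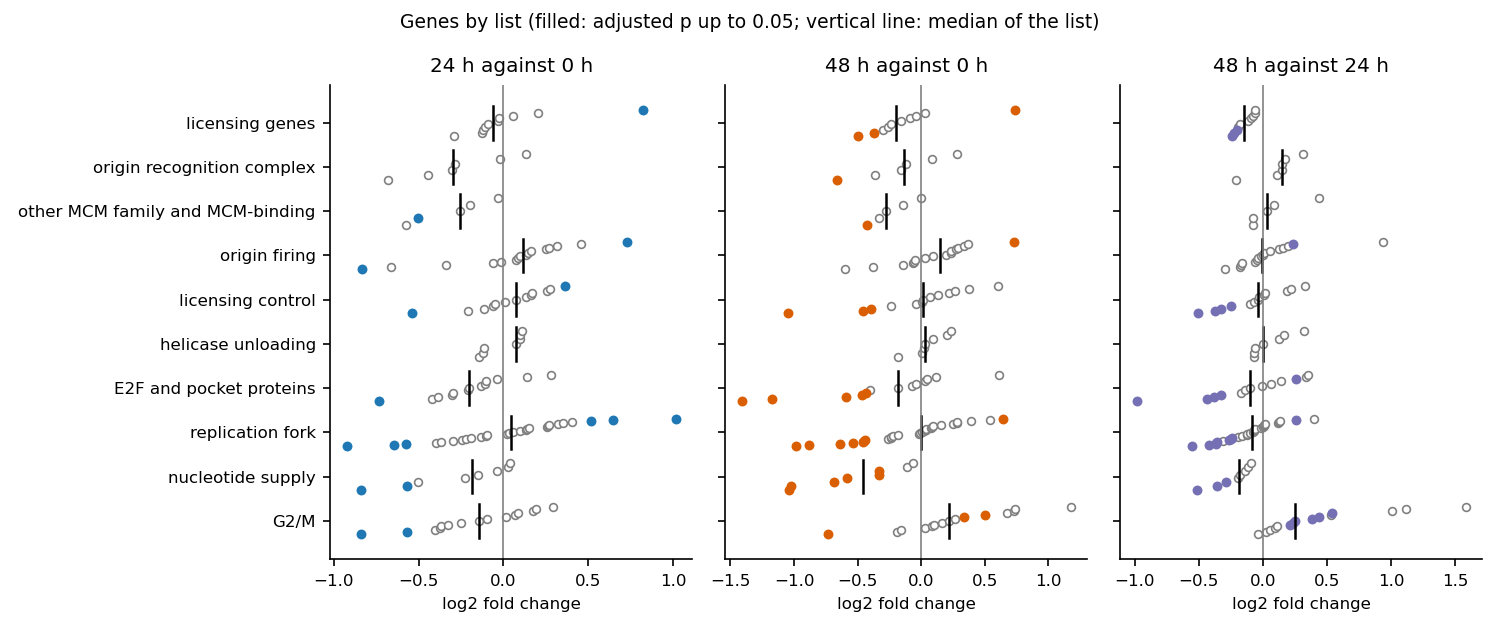
Log2 fold changes from edgeR (horizontal axes) of the genes in each list (vertical axis) in the 3 comparisons; each point is a gene, filled where its adjusted p was up to 0.05, and the vertical line is the median of the list. At 48 h against 0 h the median was -0.20 for the licensing genes, -0.46 for nucleotide supply and 0.22 for G2/M.

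Genes of the moving fork and of nucleotide supply, which act after licensing, are given for comparison. Of 28 fork genes, 3 were higher and 3 lower at 24 h against 0 h, 1 was higher and 7 lower at 48 h against 0 h, and 1 was higher and 8 lower between 24 h and 48 h. Among all genes tested, 11.4% were called higher and 14.2% lower at 24 h against 0 h. The shares were 13% and 18.5% at 48 h against 0 h, and 8.61% and 12.7% between 24 h and 48 h. Chtf18, of the clamp loader linked to sister chromatid cohesion, was at 50.6 to 69.6 CPM at 0 h, 118 to 123 CPM at 24 h and 88.1 to 101 CPM at 48 h (2.02-fold at 24 h, log2 fold change 1.01 ± 0.13, edgeR adjusted p = 0.00154). Prim1, the catalytic subunit of primase, was at 100.0 to 116 CPM at 0 h and 62.9 to 74.2 CPM at 24 h (-0.64 ± 0.12, edgeR adjusted p = 0.00613). Of 8 nucleotide supply genes, 2, 6 and 3 were lower in the 3 comparisons and none higher, against the same shares of all genes. Rrm2, the inducible subunit of ribonucleotide reductase, was at 136 to 145 CPM at 0 h, 72.9 to 80.7 CPM at 24 h and 59.9 to 72.3 CPM at 48 h, a log2 fold change of -0.84 ± 0.10 at 24 h and -1.04 ± 0.12 at 48 h (edgeR adjusted p = 0.00094 and 0.000572). Tk1, thymidine kinase, was lower at 48 h by -1.02 ± 0.18 (edgeR adjusted p = 0.00442). No difference between these lists and the licensing genes was tested.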

How the data were processed

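RNA-seq counts from 9 libraries of EGFP-SSCs (0, 24 and 48 h, 3 biological replicates each) were used. The authors deposited raw counts per gene; the submitters' processing notes name fastp, HISAT2, featureCounts and GRCm38, and per the study poly-A RNA was sequenced. The strand setting is not given in the sources used here. Symbols and lengths came from GENCODE M21 (GRCm38), which held 45143 of the 46078 identifiers; those without one took at most 0.121% of the counts.

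Each comparison used its 6 libraries: filterByExpr, TMM, and edgeR 4.0.16 with its two-sided quasi-likelihood test (R 4.3.3), with Benjamini-Hochberg adjustment and a threshold of 0.05. CPM and FPKM are TMM-scaled over 9 libraries, and ratios used a prior count of 0.5. SE are the log2 fold change over the root of the F statistic. On simulated counts for 24 h against 0 h (17592 genes, 200 of them changed), edgeR recovered 98 of 100 genes changed 4-fold and 48 of 100 changed 2-fold, with 3 false calls. In the measured libraries 25.5% of genes passed in this comparison, and Gmnn differed 1.77-fold. Recovery was not tested below 2-fold, with a larger share of genes changed, or in the other comparisons. Counting error is small at these depths. The edgeR p-values set a difference against the spread between replicates, moderated over genes. All replicates are of the same cell line, so the spread between animals or lines was not measured.

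The 10 genes and all lists were chosen with earlier results of these data known, and the lists come from general knowledge. Named genes are the 10, the 6 Orc genes, up to 3 called genes per list and comparison with the largest change (at least 10 CPM in 1 group, no overlap), genes sharing exons or a promoter with the 10, and the 5 most like the MCM pattern; other genes named are background. Tried instead were DESeq2 1.42.0, its size factors, scaling by library size alone, no filter, a minimum of 10 counts per library, a joint fit of all 9 libraries, a block for the replicate number, GC and length offsets, that block with these offsets, a fold change over 1.3, each library left out, the longest transcript as length, TPM, and a prior count of 2. Same-numbered libraries of different times correlated at -0.28 to 0.196 in their deviations, so that the numbers were not taken as pairs.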

Additional observations from a re-analysis of the deposited data

How the results depend on the processing

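Gmnn stayed higher, past the threshold, in both comparisons with 0 h under all alternatives run. The number of licensing genes called at 24 h against 0 h was 2 with library size alone (Gmnn and Cdc45), with all 9 libraries in 1 fit (Gmnn and Mcm3) and with GC and length offsets (Gmnn and Cdc45). At 48 h against 0 h it was 5 with all 9 libraries in 1 fit (Mcm2 and Mcm6 added), and Mcm7 was lost with library size alone, no filter, the GC and length offsets and the fold change over 1.3. Between 24 h and 48 h it was 0 with all 9 libraries in 1 fit and with the fold change over 1.3, and 1 (Mcm6) with the GC and length offsets, and the number of all genes called was 1043 with all 9 libraries in 1 fit against 3732. When each library was left out in turn, 1 to 2, 1 to 5 and 0 to 3 licensing genes were called in the 3 comparisons, of 2607 to 6023, 3471 to 7116 and 1857 to 4356 genes in all. The lowest counts of licensing genes came without 48 h replicate 1 or 3 in the comparison with 0 h (1 each), and without 24 h replicate 1, 24 h replicate 3 or 48 h replicate 1 between 24 h and 48 h (0 each). The highest came without 0 h replicate 1 (5 at 48 h).

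The replicate number as a block left 1 licensing gene called at 24 h and 2 at 48 h against 0 h (Mcm7 lost, edgeR adjusted p = 0.094) and 0 between 24 h and 48 h, and with the GC and length offsets as well it left 1 between 24 h and 48 h. Beside Cdk2, Skp2 and Cul4a, the block also ended the calls of Topbp1 at 24 h (edgeR adjusted p = 0.0672) and of Mcm10 and E2f8 at 48 h against 0 h (0.0631 and 0.0612). Between 24 h and 48 h it ended those of Topbp1 (0.0742) and E2f8 (0.0552). The block lowered the genes called in all from 4494 to 3007, from 5602 to 4013 and from 3732 to 2497, and not every library correlated best with its own number.

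Library size alone shifted the median of all genes to 0.12 and 0.13 in the comparisons with 0 h, and turned the sign of Mcm2 (0.0052), Mcm4 (0.089), Mcm6 (0.081), Cdt1 (0.023) and Orc2 (0.090) at 24 h and of Mcm4 (0.017) and Cdc6 (0.071) at 48 h, none of them called. A minimum of 10 counts per library turned Mcm4 (0.019), Mcm6 (0.013) and Orc2 (0.021) at 24 h, and the block turned Orc2 (0.0011). The GC and length offsets turned Mcm6 (0.0027, and 0.012 with the block) at 24 h, Cdc6 (0.018 and 0.020), Cdt1 (0.13 and 0.13) and Orc2 (-0.013 and -0.013) at 48 h against 0 h, and Cdt1 (0.16 and 0.16), Orc3 (-0.088 and -0.094) and Orc5 (-0.072 and -0.088) between 24 h and 48 h. Leaving out a library moved the log2 fold change at 24 h against 0 h from -0.18 to 0.029 for Mcm2, -0.12 to 0.074 for Mcm4, -0.24 to 0.022 for Mcm5, -0.11 to 0.029 for Mcm6, -0.00081 to 0.12 for Cdc6, -0.14 to 0.023 for Cdt1, -0.16 to 0.14 for Orc2, -0.50 to 0.012 for Orc3, -0.19 to 0.011 for Ufd1, -0.092 to 0.41 for Cops6 and -0.21 to 0.72 for Prkdc. At 48 h against 0 h the ranges were -0.19 to 0.0045 for Mcm4, -0.090 to 0.023 for Cdc6, -0.057 to 0.25 for Orc2, -0.35 to 0.16 for Orc3, -0.61 to 0.13 for Orc4 and -0.21 to 0.13 for Orc5, and between 24 h and 48 h they were -0.12 to 0.017 for Cdt1 and -0.11 to 0.17 for the log2 ratio of Cdt1 to Gmnn. With the longest transcript as gene length, the highest MCM subunit stood 2.45, 2.23 and 2.04 times above the lowest at 0, 24 and 48 h. The cause of these changes was not tested.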

Other observations

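Genes of G2 and mitosis were higher at 48 h than at 24 h where they passed the test; the difference from the licensing genes was not tested. Of 15 tested, 2 were lower at 24 h against 0 h, 2 were higher and 1 lower at 48 h against 0 h, and 6 were higher and none lower at 48 h against 24 h, where the median log2 fold change was 0.25. Among all genes tested, 14.2% were lower at 24 h against 0 h, and 13% were higher and 18.5% lower at 48 h against 0 h. The shares at 48 h against 24 h were 8.61% higher and 12.7% lower. Ccnb1, the cyclin of mitotic entry, was at 238 to 253.5 CPM at 24 h and 326 to 339 CPM at 48 h (log2 fold change 0.43 ± 0.06, edgeR adjusted p = 0.00136), and Kif11, the kinesin that splits the spindle poles, at 104 to 132 and 154 to 199.7 CPM (0.54 ± 0.11, edgeR adjusted p = 0.00996, but 0.294 with all 9 libraries in 1 fit). Cdk1, the partner of Ccnb1, was at 81.7 to 85.2 CPM at 0 h, 43.4 to 50.5 CPM at 24 h and 48.5 to 52.7 CPM at 48 h, a log2 fold change of -0.84 ± 0.11 and -0.74 ± 0.10 against 0 h (edgeR adjusted p = 0.00129 and 0.00161). Tpx2, a spindle assembly factor, was higher at 48 h than at 0 h by 0.50 ± 0.10 (edgeR adjusted p = 0.00871).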
